A study of Homo sapiens with 9 samples.

Results

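Mitochondrial ribosomal protein genes were followed through neural differentiation of human embryonic stem cells and through a block of lysosomal acidification. The family was chosen with earlier results of these data known, and its genes were picked by symbol. They are the protein-coding rows of the count table whose symbol is MRPL or MRPS followed by a number and at most 1 letter, and there were 78 of them among 46427 rows, of which 19672 were protein-coding. All 78 passed the filter on low counts. By the standard nomenclature, 51 encode proteins of the large (39S) subunit, 26 proteins of the small (28S) subunit, and 1, MRPS36, a protein that is now placed outside the ribosome.

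The libraries came from H9, an established human embryonic stem cell line, in 3 groups of 3. BafA1 NPC were neural progenitor cells at day 11 of a midbrain dopaminergic differentiation that had been given bafilomycin A1 at 10 nM for 6 h at a time. Bafilomycin A1 inhibits the vacuolar proton pump, so that lysosomes lose their acidity and autophagosomes are not cleared. More than 1 timing of the exposure appears in the labels, and which of them the sequenced cells had is not stated there. Control NPC were untreated day 11 progenitors, and hESC were undifferentiated, untreated H9 cells. Both groups of progenitors shared the differentiation medium, with the BMP and TGF-beta receptor inhibitors LDN193189 (200 nM) and SB431542 (10 µM), the Hedgehog agonist purmorphamine (2 µM) and the GSK3 inhibitor CHIR99021 (3 µM). All cells derive from 1 line, and the 3 libraries of each group are biological replicates by their labels, which do not say whether the groups were grown or sequenced together.

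Mitochondria keep their own ribosome, which translates only the mRNAs of the mitochondrial genome, and all of those encode membrane subunits of the oxidative phosphorylation complexes. Its rRNAs are made in the organelle, but every one of its proteins is encoded in the nucleus, translated in the cytosol and imported. Many of these proteins descend from the bacterial ribosome, and others were gained in the mitochondrial lineage, where they took over space once held by rRNA.

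Library totals were 43124679 to 69703791 counts in BafA1 NPC, 49479733 to 56054194 in Control NPC and 55706968 to 66544642 in hESC. The 8 pluripotency markers summed to 1133 to 1238 CPM in BafA1 NPC, 835 to 915 CPM in Control NPC and 4964 to 5248 CPM in hESC. Of the 8, 7 were called lower and 1 higher in Control NPC than in hESC. In BafA1 NPC over Control NPC 2 were called higher and 1 lower. Of all genes tested, 33% were called higher and 31.6% lower in Control NPC over hESC. In BafA1 NPC over Control NPC the shares of all genes were 20.8% and 20.7%, which also stand beside the marker counts that follow. POU5F1 averaged 0.00607 CPM in BafA1 NPC, 0 CPM in Control NPC and 2285 CPM in hESC. In the same order LIN28A averaged 786, 537 and 1176 CPM, and SOX2, also a neural progenitor marker, 344, 272 and 216 CPM. Of 10 neural progenitor markers, 10 averaged over 1 CPM in BafA1 NPC, 9 in Control NPC and 4 in hESC, and 4 were called higher and 2 lower in BafA1 NPC than in Control NPC. The 10 against 9 rests on PAX6, at 1.045 CPM in BafA1 NPC and 0.38 CPM in Control NPC. Mesenchyme markers were present in the progenitors: the 8 of them summed to 2078 to 2308 CPM in BafA1 NPC, 1141 to 1888 CPM in Control NPC and 82.9 to 88.2 CPM in hESC. COL1A1 made up most of that sum, at 1963 CPM in BafA1 NPC and 1211 CPM in Control NPC, and of the 8 markers 3 were called higher and 3 lower in BafA1 NPC than in Control NPC (median log2 change -0.28). The 6 endoderm markers summed to 235 to 290 CPM in BafA1 NPC, 117 to 179 CPM in Control NPC and 8.80 to 10.1 CPM in hESC. Of the 4 that were tested, 1 was called higher and 1 lower in BafA1 NPC than in Control NPC. CXCR4 held most of the BafA1 sum, at 218 CPM against 93.2 CPM in Control NPC. GATA4 was at 0 CPM in both, and SOX17 at 0.0243 CPM in BafA1 NPC and 0 CPM in Control NPC. In BafA1 NPC, Control NPC and hESC, 8 neuron markers summed to 676 to 726, 648 to 693 and 246 to 265 CPM. For 6 neural crest markers the sums were 75.9 to 98.9, 73.2 to 102 and 105 to 121 CPM. Whether cells of these types had a part in the changes below was not tested, and in bulk RNA fewer cells of a type and less RNA per cell cannot be told apart. The mRNAs of the mitochondrial genome took 2.09 ± 0.112% of counts in BafA1 NPC, 3.04 ± 0.115% in Control NPC and 4.19 ± 0.431% in hESC (SD, n = 3 each).

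One library stood apart in these genes. BafA1 replicate 1 was the lowest of the 3 BafA1 libraries in 77 of the 78 genes, all but MRPS25, which is 98.7% of them, whereas it was the lowest in 37.5% of all 20685 genes tested. Its total, 53731524 counts, lay between those of the other BafA1 libraries. Counts of called genes in BafA1 NPC over Control NPC are therefore given with and without it.

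Some sequence features recurred in the promoters of part of these genes. RefSeq windows on GRCh38.p14, from 250 bases before to 50 after an annotated start, were found for 70 of the 78 genes. The letters CCGGAAG, the core recognised by ETS-family factors such as GABP, occurred on either strand in windows of 30 of the 70 genes (42.9%), against 19.8% of the 12610 tested protein-coding genes with a window and 10.3% of all 35116 windows. The letters AAGATGGC, a core of the YY1 motif, occurred in 21 of the 70 (30%), against 5.52% of the tested protein-coding genes and 2.89% of all windows. A gene counted if any of its windows matched, whereas the share of all windows counts each window, so only the gene shares are alike. At least 1 of the 2 cores was present in 43 of the 70 genes, and both in 8. Positions were taken from the first window of each gene. There the ETS core lay before the start in 33 of 39 matches, with a median position of -22. The YY1 core lay before it in 6 of 21 matches, with a median position of 9. As 250 of the 300 bases of a window precede the start, most matches placed at random would do so too. Positions in other genes were not tallied. A TATA box (TATAAA, both strands) was found in 4 of the 70 genes (5.71%), against 9.41% of the tested protein-coding genes, and the full NRF1 palindrome in 1, MRPL17. A match describes the letters of a window and is no evidence of binding.

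The following are 130-base windows (100 bases before the start and 30 from it, GRCh38.p14) of genes whose levels are described further on: MRPS30, MRPL53 and MRPL37 among those higher in BafA1 NPC, MRPL16 and MRPL20 among those lower, and MRPL40 and MRPL3 among those that changed with differentiation. Capitals mark either core, on either strand.
MRPS30 chr5:44808847-44808976 (plus strand): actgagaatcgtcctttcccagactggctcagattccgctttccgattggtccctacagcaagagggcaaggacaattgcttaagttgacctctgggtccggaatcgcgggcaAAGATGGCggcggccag
MRPL53 chr2:74472651-74472780 (minus strand): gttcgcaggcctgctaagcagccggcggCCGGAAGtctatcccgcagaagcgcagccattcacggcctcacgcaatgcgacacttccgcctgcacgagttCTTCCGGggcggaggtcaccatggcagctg
MRPL37 chr1:54200067-54200196 (plus strand): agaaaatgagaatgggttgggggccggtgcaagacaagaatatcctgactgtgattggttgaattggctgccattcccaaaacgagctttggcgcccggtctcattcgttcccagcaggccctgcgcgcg
MRPL16 chr11:59810749-59810878 (minus strand): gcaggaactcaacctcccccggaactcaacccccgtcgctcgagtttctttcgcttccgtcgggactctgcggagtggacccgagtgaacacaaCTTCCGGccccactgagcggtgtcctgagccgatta
MRPL20 chr1:1407264-1407393 (minus strand): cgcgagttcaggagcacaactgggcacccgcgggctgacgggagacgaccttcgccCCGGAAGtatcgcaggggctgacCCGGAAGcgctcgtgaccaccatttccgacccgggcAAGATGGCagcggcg
MRPL40 chr22:19432445-19432574 (plus strand): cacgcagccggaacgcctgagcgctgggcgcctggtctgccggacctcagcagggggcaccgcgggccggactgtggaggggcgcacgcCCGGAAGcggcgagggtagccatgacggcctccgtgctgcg
MRPL3 chr3:131502942-131503071 (minus strand): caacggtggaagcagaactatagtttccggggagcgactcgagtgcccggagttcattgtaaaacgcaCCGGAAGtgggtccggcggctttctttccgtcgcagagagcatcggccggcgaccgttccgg
MRPL20 carried the ETS core 2 times ahead of the start and the YY1 core just after it, and MRPS30 held the YY1 core alone. MRPL53, MRPL16, MRPL40 and MRPL3 held the ETS core, in MRPL53 and MRPL16 also or only on the opposite strand. In the window of MRPL37 neither core was present.

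Genes with and without a core are set side by side by their calls. In BafA1 NPC against Control NPC, 4 of the 30 genes with the ETS core rose and 5 fell (median log2 change -0.04), and of the 40 without it 11 rose and 4 fell (median 0.08). Among the 21 genes with the YY1 core 4 rose and 5 fell (median -0.03), and of the 49 without it 11 rose and 4 fell (median 0.06). Without BafA1 replicate 1, 10 of the 30 with the ETS core rose and 3 fell, and 7 of the 21 with the YY1 core rose and 3 fell. In Control NPC against hESC, 15 of the 30 genes with the ETS core fell and 3 rose (median -0.33), and of the 40 without it 24 fell and 2 rose (median -0.32). In the same comparison 15 of the 21 with the YY1 core fell and 0 rose (median -0.36), and of the 49 without it 24 fell and 5 rose (median -0.29). The shares of all genes called, given with each comparison further on, were 20.8% higher and 20.7% lower in the first and 33% higher and 31.6% lower in the second, and no difference between holders and the rest was tested. The mRNAs of 2 factors that bind these cores are named here after their values were seen. YY1 itself averaged 77.8 ± 4.91 CPM in BafA1 NPC, 74.2 ± 6.51 CPM in Control NPC and 128 ± 4.88 CPM in hESC (SD, n = 3 each). Its BafA1 to Control log2 change of 0.07 had an edgeR adjusted p of 0.553, while that from Control NPC over hESC, -0.78, had an adjusted p of 7.74e-06. GABPA, the DNA-binding subunit of GABP, averaged 30.96 ± 2.98 CPM in BafA1 NPC, 46.1 ± 4.86 CPM in Control NPC and 47.5 ± 2.71 CPM in hESC, a log2 change in BafA1 NPC over Control NPC of -0.57 (edgeR adjusted p = 0.00103).

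The 78 genes were scattered over 21 chromosomes with at most 8 on any of them, and 32 overlapped another RefSeq gene, 18 of them a protein-coding one. Another gene started on the opposite strand within 500 bases, pointing away, for 23 of them, and for 16 that neighbour was protein-coding. MRPS11 (chr15:88467708-88480776, plus strand) and MRPL46 form such a pair with each other, their starts 320 bases apart. The protein-coding neighbours made 15 distinct pairs. In BafA1 NPC over Control NPC both genes were called the same way in 1 pair and opposite ways in 1, 1 gene was called in 8 and neither in 5, and in Control NPC over hESC both were called the same way in 3 and opposite ways in 3, and 1 gene in 9. Of all genes tested, 20.8% were called higher and 20.7% lower in BafA1 NPC over Control NPC, and 33% and 31.6% in Control NPC over hESC. Pairs without a member were not tallied, so whether these counts are particular to the members was not tested. The pairs named here were picked after their values were seen. MRPL50 and ZNF189, 233 bases apart, fell by 0.46 and 0.90 on the log2 scale in BafA1 NPC (edgeR adjusted p = 0.00231 and 0.00025). MRPL49 fell by 0.42 on the log2 scale in BafA1 NPC while FAU, whose start lies 49 bases away, rose by 0.44 (edgeR adjusted p = 0.00576 and 0.0192). MRPL37 rose by 0.67, whereas CYB5RL, 137 bases away, had a log2 change of -0.23 (adjusted p = 0.000457 and 0.0887).

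**Figure D1:**
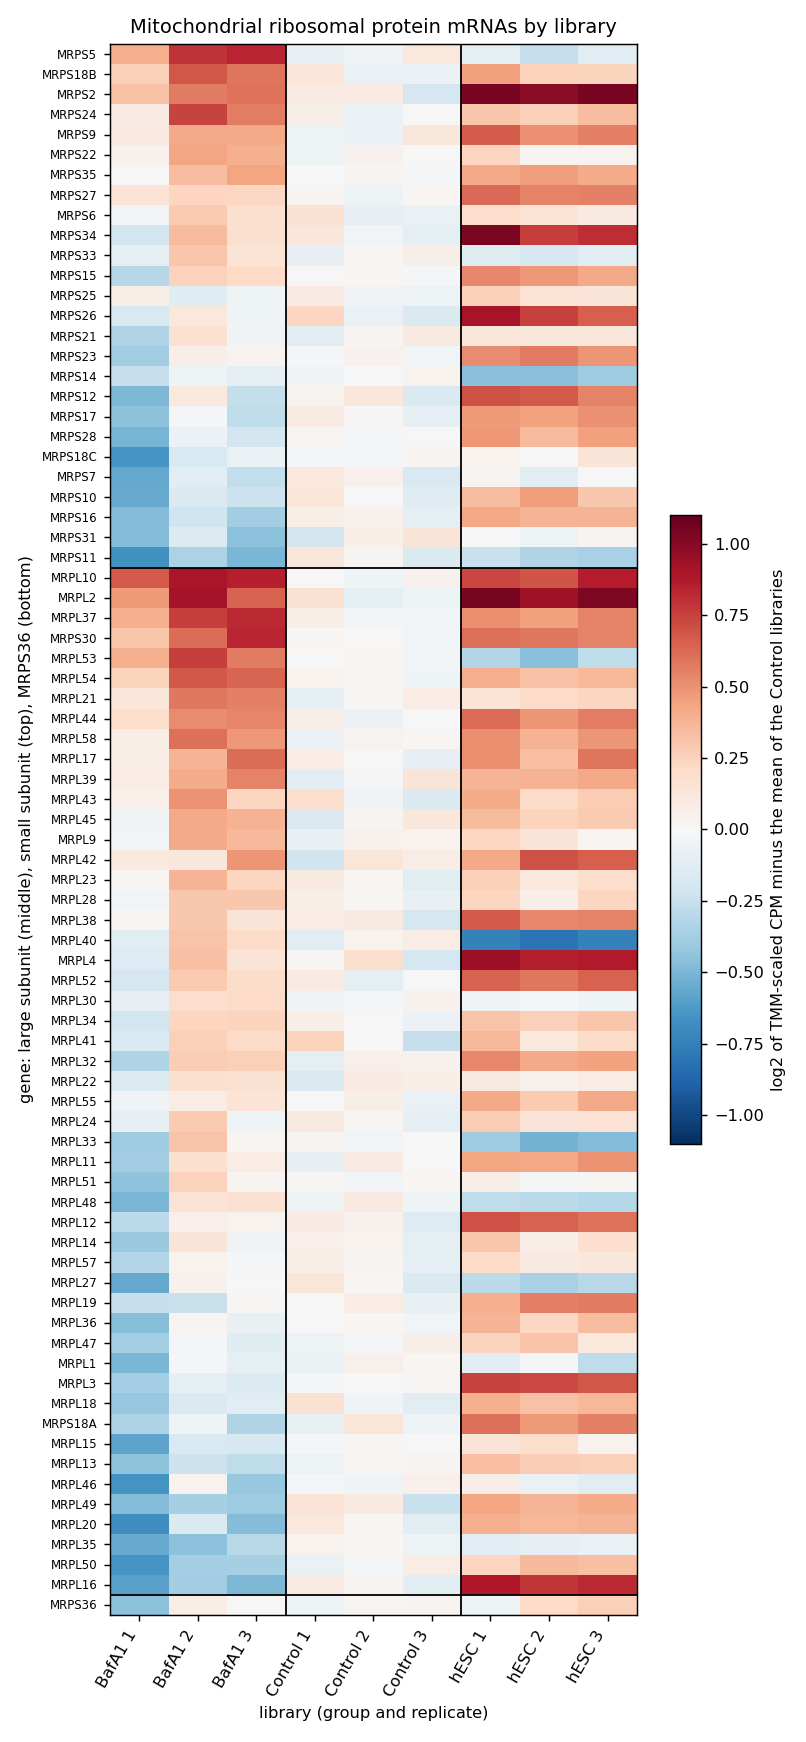
Level of each of the 78 genes (down the page, small subunit above, large subunit in the middle, MRPS36 at the bottom, ordered within a subunit by the BafA1 to Control change) in each of the 9 libraries (left to right), as log2 of TMM-scaled CPM minus the mean of the 3 Control libraries. Most hESC squares are red, most Control squares are pale, and the column of BafA1 replicate 1 is bluer than the other 2 BafA1 columns in 77 of 78 genes.

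All 78 mRNAs were abundant. On the scale of CPM (counts scaled to a common library size after TMM normalisation, a level that is not adjusted for transcript length), gene means ran from 14.03 to 136 CPM in BafA1 NPC, with a median of 42.7, from 15.1 to 115 CPM in Control NPC, with a median of 40.95, and from 14.6 to 189 CPM in hESC, with a median of 51.8. The smallest single count was 609 reads in BafA1 NPC, 763 in Control NPC and 734 in hESC. The spread between libraries, as the median coefficient of variation over the 78 genes, was 15.2% in BafA1 NPC, 6.17% in Control NPC and 4.24% in hESC.

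Levels per transcript length, from the deposited FPKM values, spanned 20.9 times in BafA1 NPC, 25.4 times in Control NPC and 19.7 times in hESC. These spans depend on the transcript length used for each gene. MRPL51 was the highest in BafA1 NPC at 95.4 FPKM and in Control NPC at 108 FPKM, and MRPS34 was the highest in hESC at 105.5 FPKM, next to MRPL51 at 105.4 FPKM. MRPL42 was the lowest in BafA1 NPC at 4.56 FPKM and in Control NPC at 4.27 FPKM, and MRPS33 was the lowest in hESC at 5.34 FPKM. Without the scaling for length MRPL42 was not low: it averaged 74.02 CPM in Control NPC, above the median of 40.95 CPM. The median gene stood at 26.4 FPKM in BafA1 NPC, 27.3 FPKM in Control NPC and 36.7 FPKM in hESC.

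Summed over the 78 genes, the mRNAs took 0.331, 0.396 and 0.372% of all counts in BafA1 NPC, 0.384, 0.385 and 0.375% in Control NPC, and 0.457, 0.437 and 0.451% in hESC. The BafA1 libraries lay on both sides of the Control libraries, with replicate 1 lowest, and the 3 hESC libraries lay above all 6 progenitor libraries. On the TMM scale the sums were 3240, 4165 and 4025 CPM in BafA1 NPC, 3657, 3644 and 3542 CPM in Control NPC, and 4674, 4486 and 4549 CPM in hESC. The ratio of BafA1 to Control means was thus 0.961 as a share of counts and 1.05 on the TMM scale, and that of Control to hESC means 0.85 and 0.791. Without BafA1 replicate 1 the first ratio was 1.007 as a share of counts. The direction of the summed BafA1 difference depended on the scaling and on that 1 library, and that of the differentiation difference did not.

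The first comparison asks how blocking lysosomal acidification during differentiation bears on these genes. In BafA1 NPC against Control NPC 18 of 78 rose, 12 fell and 48 did not pass the test (edgeR quasi-likelihood test, adjusted p under 0.05). Calls in both directions were also the rule over all genes tested, of which 20.8% rose and 20.7% fell. Risers included the stalk-base protein gene MRPL10, the small subunit gene MRPS5 and the core rRNA-binding protein gene MRPL2, at 1.75, 1.61 and 1.61 times the Control level. Fallers included MRPS11, MRPL16 and MRPL50, at 0.704, 0.711 and 0.727 times. Estimates ran from -0.51 to 0.81 on the log2 scale, and none reached 2-fold.

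The transcriptome as a whole gives the background. Of all 20685 genes tested, 20.8% rose and 20.7% fell, against 23.1% and 15.4% of the 78 genes, and the median log2 change was 0.06 in the 78 genes and 0 over all genes. Of the 15699 protein-coding genes tested, the class all 78 belong to, 23.3% rose and 23.4% fell. The 3 BafA1 libraries lay above all 3 Control libraries in 14 of the 78 genes and below them in 14, against 24.1% and 25.1% of all genes. Without BafA1 replicate 1, 31 of the 78 genes rose and 8 fell, with a median of 0.17, against 20.9% and 20.2% of all genes. With libraries scaled by their totals alone, which moved the median of all genes to -0.12, 12 of the 78 rose and 24 fell, against 15% and 27.5% of all genes. In the FPKM values, tested with limma, 9 rose and 22 fell at either pseudocount, against 8.03% and 16.8% of all genes at a pseudocount of 1. The median of the 78 genes was -0.07 with library totals alone, -0.13 in log2(FPKM + 1), -0.02 with trends over GC content and length removed and -0.01 without BafA1 replicate 2, so its direction rested on the processing and on single libraries. Of the individual calls, 8 of the 18 rises and 7 of the 12 falls were made in all 19 alternatives.

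**Figure D2:**
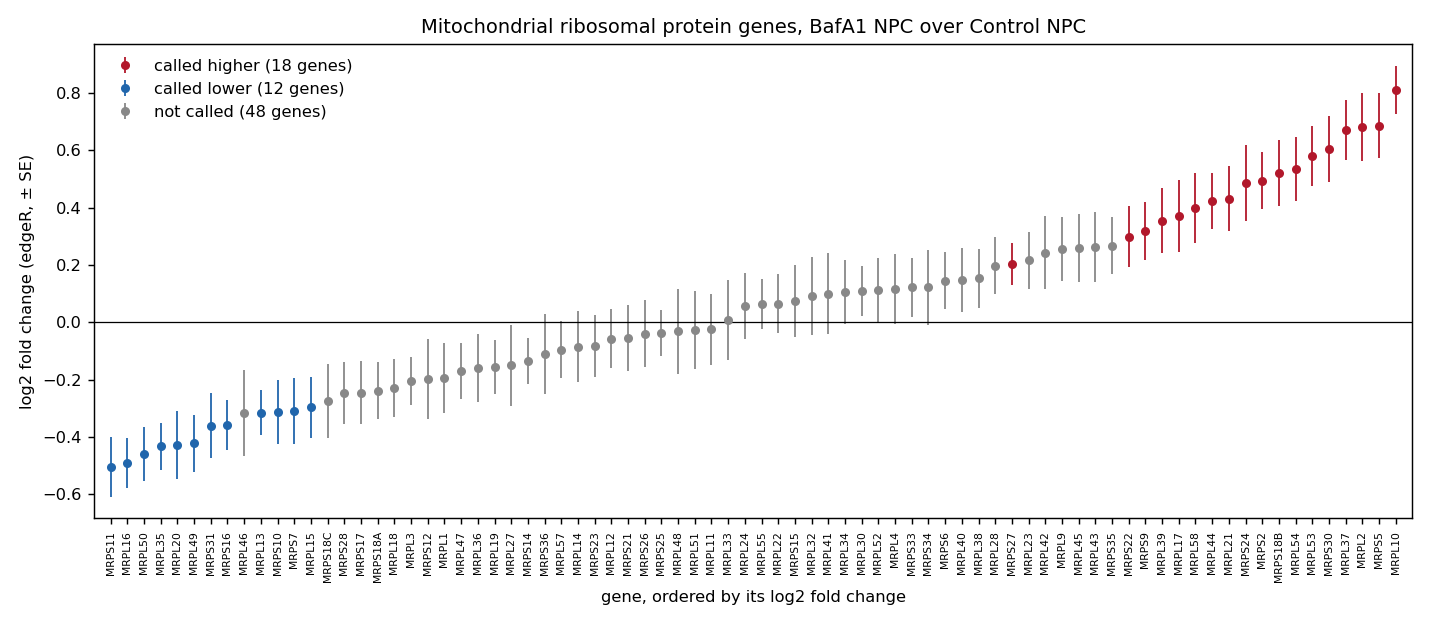
Log2 fold change of BafA1 NPC over Control NPC (vertical axis, edgeR estimate ± SE, 3 libraries a group) of each of the 78 genes, ordered from lowest to highest along the horizontal axis, in red where called higher (18), in blue where called lower (12) and in grey where not called (48). Estimates lie on both sides of 0, from MRPS11 at -0.51 to MRPL10 at 0.81.

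MRPL10 (uL10m, the anchor of the stalk that recruits translation factors, chr17:47823272-47831541) read 72.9, 85.3 and 83.01 CPM in BafA1 NPC, against 45.6, 44.4 and 47.5 CPM in Control NPC. Every BafA1 library lay above every Control library, and the log2 change was 0.81 ± 0.085 (SE, edgeR adjusted p = 4.1e-05). In hESC it read 76.2, 73.98 and 83.2 CPM, a range that overlaps the BafA1 libraries. MRPL12 (bL12m), the stalk protein that MRPL10 holds and that also binds mitochondrial RNA polymerase, read 54.4, 69.05 and 68.1 CPM in BafA1 NPC and 70.6, 68.4 and 60.2 CPM in Control NPC. Those ranges overlap (log2 change -0.06 ± 0.10 (SE), edgeR adjusted p = 0.688), and the estimate turned to 0.06 without BafA1 replicate 1 and to -0.29 (adjusted p = 0.0165) with GC and length trends removed.

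MRPS5 (uS5m, beside the channel where mRNA enters, chr2:95085369-95122003, minus strand) had 73.03, 96.3 and 99.3 CPM in BafA1 NPC and 52.5, 54.2 and 60.2 CPM in Control NPC, with no overlap and a log2 change of 0.69 ± 0.11 (SE, edgeR adjusted p = 0.000641). Its hESC libraries, at 51.5, 46.6 and 50.8 CPM, lay below all 6 progenitor libraries. MRPL2 (uL2m, an rRNA-binding protein near the peptidyl transferase centre, chr6:43054029-43059863, where it overlaps KLC4) had 27.99, 38.3 and 31.7 CPM in BafA1 NPC and 22.7, 18.8 and 19.5 CPM in Control NPC. The BafA1 libraries were all higher, by 0.68 ± 0.12 (SE, adjusted p = 0.000852).

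MRPL37 (mL37), MRPS30 (mL65), MRPL53 (mL53) and MRPL54 (mL54) encode proteins of the large subunit with no bacterial counterpart. MRPL37 (chr1:54200167-54225489, plus strand, overlapping SSBP3) had 112, 145 and 151 CPM in BafA1 NPC and 89.1, 83.7 and 83.5 CPM in Control NPC, a log2 change of 0.67 ± 0.11 (SE, edgeR adjusted p = 0.000457). MRPS30, whose protein sits in the large subunit in spite of its name, had 34.03, 42.1 and 49.3 CPM in BafA1 NPC and 27.9, 27.6 and 26.9 CPM in Control NPC, a change of 0.61 ± 0.11 (SE, adjusted p = 0.00151). In both genes the groups stayed apart and replicate 1 was the lowest BafA1 library. The divergent transcript MRPS30-DT, 154 bases from the start of MRPS30, rose as well, by 0.88 (adjusted p = 0.0212).

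MRPL53 measured 24.4, 31.4 and 27.7 CPM in BafA1 NPC and 18.7, 18.9 and 18.3 CPM in Control NPC, and its log2 change was 0.58 ± 0.11 (SE, edgeR adjusted p = 0.00113). MRPL54 measured 23.7, 32.2 and 31.2 CPM in BafA1 NPC and 20.5, 20.2 and 19.3 CPM in Control NPC, and its log2 change was 0.54 ± 0.11 (SE, adjusted p = 0.0027). Neither gene's groups overlapped. The MRPL54 call was lost in 1 alternative, the GC and length correction with a replicate block (0.26, adjusted p = 0.0625).

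The MRPS18 paralogs, all descended from 1 bacterial protein, were not called alike. MRPS18B (mS40, small subunit) had 42.4, 56.9 and 53.3 CPM in BafA1 NPC and 38.9, 33.6 and 33.9 CPM in Control NPC, all BafA1 libraries higher, with a log2 change of 0.52 ± 0.12 (SE, edgeR adjusted p = 0.00376). MRPS18A (mL66, placed in the large subunit) had 28.3, 34.7 and 28.5 CPM in BafA1 NPC and 33.8, 39.4 and 34.6 CPM in Control NPC, overlapping ranges with a change of -0.24 ± 0.10 (SE) that was not called (adjusted p = 0.077). It was called lower with library totals alone (-0.37, adjusted p = 0.0124), without BafA1 replicate 2 (-0.34, adjusted p = 0.0177), with GC and length trends removed (-0.38, adjusted p = 0.00482) and in log2(FPKM + 1) with limma (-0.39, adjusted p = 0.0141). MRPS18C (bS18m, the direct counterpart of the bacterial protein) had 16.9, 23.5 and 25.1 CPM in BafA1 NPC and 26.1, 26.2 and 26.9 CPM in Control NPC, a change of -0.28 ± 0.13 (SE) that was not called (adjusted p = 0.105), although all BafA1 libraries were lower. It was called lower without BafA1 replicate 3 (-0.39, adjusted p = 0.0426) and with library totals alone (-0.41, adjusted p = 0.0119). The differences between paralogs were not tested.

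The other 10 rises, of MRPS2, MRPS24, MRPL21, MRPL44, MRPL58, MRPL17, MRPL39, MRPS9, MRPS22 and MRPS27, ran from 0.20 to 0.49 (SE 0.072 to 0.13, edgeR adjusted p 0.00207 to 0.0423). Of these only MRPS2 was called in all 19 alternatives. MRPS24 shares its span with the read-through gene URGCP-MRPS24, so reads could have been split between them. MRPL58 (mL62), a peptidyl-tRNA hydrolase that frees stalled mitochondrial ribosomes and is also built into the large subunit, had 23.6, 34.1 and 31.2 CPM in BafA1 NPC and 21.4, 23.1 and 22.9 CPM in Control NPC. Its BafA1 libraries were all higher by a small margin, with a change of 0.40 ± 0.12 (SE, adjusted p = 0.0203). The call was lost without BafA1 replicate 2 (adjusted p = 0.0837), BafA1 replicate 3 (0.0704) or Control replicate 1 (0.0657), with library totals alone (0.0701) and with limma on the FPKM values (0.168 and 0.173).

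**Figure D3:**
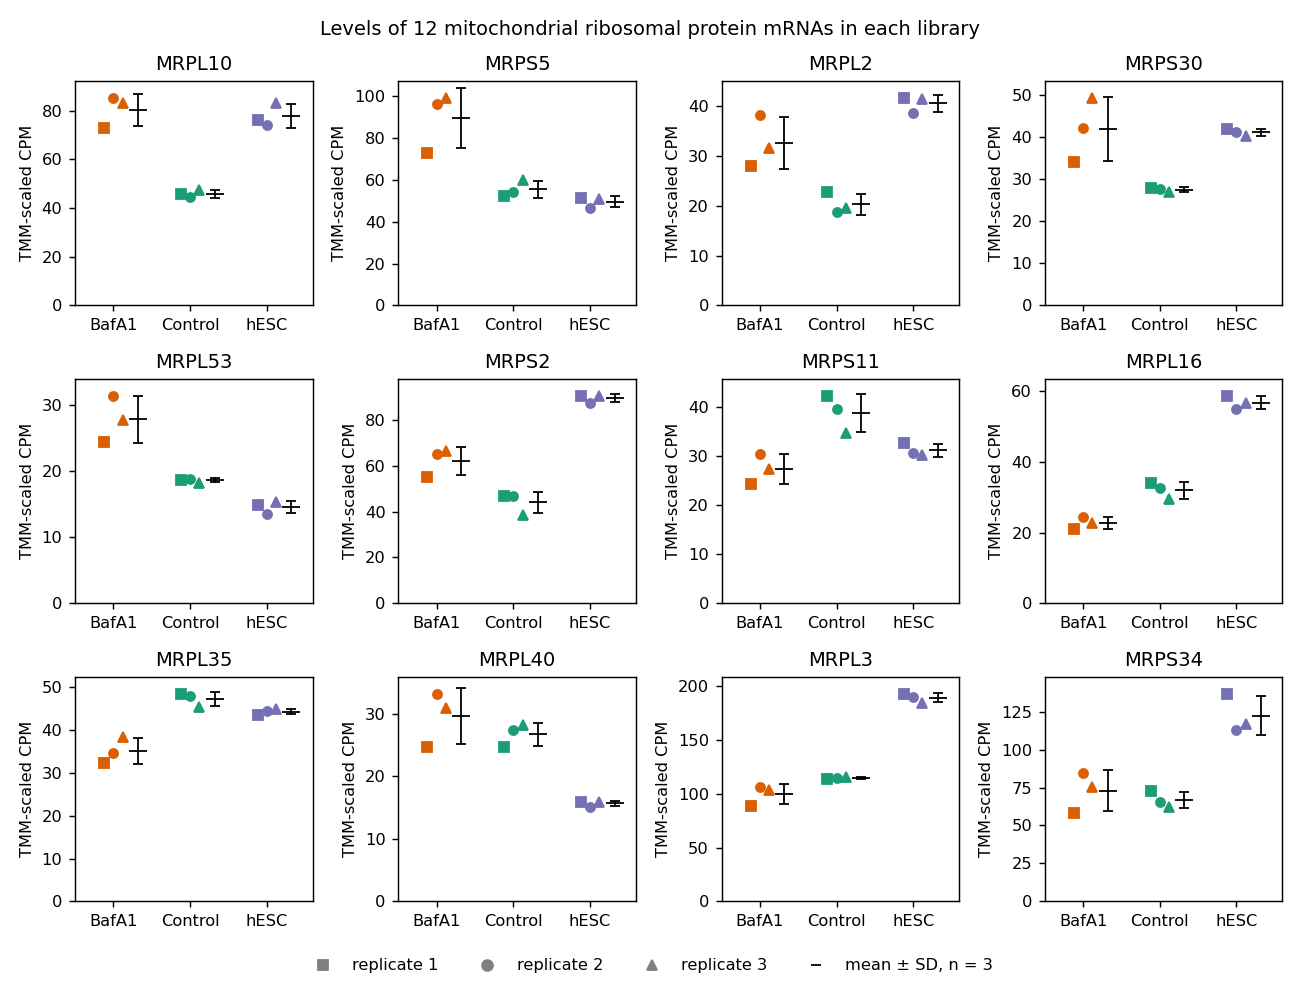
TMM-scaled CPM (vertical axes, from 0) of 12 of the 78 genes in each library of BafA1 NPC, Control NPC and hESC (horizontal axes), with squares, circles and triangles for replicates 1, 2 and 3 and bars for mean ± SD of 3 libraries. In the panels of MRPL10, MRPS5, MRPL2, MRPS30, MRPL53 and MRPS2 every BafA1 library lies above every Control library, and in the panels of MRPS11, MRPL16 and MRPL35 every one lies below.

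The largest falls in BafA1 NPC were smaller than the largest rises. MRPS11 (uS11m, on the platform of the small subunit) had 24.4, 30.4 and 27.3 CPM in BafA1 NPC and 42.3, 39.5 and 34.6 CPM in Control NPC, with no overlap and a log2 change of -0.51 ± 0.10 (SE, edgeR adjusted p = 0.00239). Its head-to-head neighbour MRPL46 (mL46) had 12.7, 20.6 and 15.03 CPM in BafA1 NPC and 19.9, 19.4 and 20.8 CPM in Control NPC, a change of -0.32 ± 0.15 (SE) that was not called (adjusted p = 0.108). MRPL16 (uL16m, near the site where tRNAs are accommodated, chr11:59806140-59810778, minus strand) had 21.1, 24.5 and 22.7 CPM in BafA1 NPC and 34.04, 32.5 and 29.4 CPM in Control NPC. Its BafA1 libraries were the lowest of all 9, and the change against Control NPC was -0.49 ± 0.088 (SE, adjusted p = 0.00105).

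MRPL50 (mL50) had 28.8, 35.02 and 35.2 CPM in BafA1 NPC and 43.1, 45.1 and 48.05 CPM in Control NPC, a log2 change of -0.46 ± 0.093 (SE, edgeR adjusted p = 0.00231). MRPL35 (bL35m) had 32.3, 34.6 and 38.4 CPM in BafA1 NPC and 48.5, 48.02 and 45.5 CPM in Control NPC, a change of -0.43 ± 0.082 (SE, adjusted p = 0.00154). In both the BafA1 libraries lay below all other libraries of the series. The MRPL50 call was lost with the GC and length correction and a replicate block together (-0.27, adjusted p = 0.0617).

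MRPL20 (bL20m) had 30.95, 44.3 and 35.6 CPM in BafA1 NPC and 53.6, 50.03 and 45.5 CPM in Control NPC, a log2 change of -0.43 ± 0.12 (SE, edgeR adjusted p = 0.0124). MRPL49 (mL49) had 34.05, 36.8 and 36.2 CPM in BafA1 NPC and 52.6, 50.8 and 40.1 CPM in Control NPC, a change of -0.42 ± 0.10 (SE, adjusted p = 0.00576). Each stayed below Control NPC in every BafA1 library, by the smallest margin in MRPL20, where BafA1 replicate 2 and Control replicate 3 nearly met. MRPS16 (bS16m) had 62.3, 74.8 and 66.8 CPM in BafA1 NPC and 90.9, 89.7 and 80.5 CPM in Control NPC, again with no overlap and a change of -0.36 ± 0.087 (SE, adjusted p = 0.00664).

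MRPS31 (mS31, chr13:40729128-40771190, minus strand) was the 1 gene of the 8 largest falls whose libraries overlapped. It had 23.4, 29.4 and 23.9 CPM in BafA1 NPC and 28.3, 34.1 and 36.03 CPM in Control NPC, with a log2 change of -0.36 ± 0.11 (SE, edgeR adjusted p = 0.0235). The call was lost without BafA1 replicate 1 (adjusted p = 0.0676), BafA1 replicate 3 (0.0834), Control replicate 2 (0.0804) or Control replicate 3 (0.0758), and with GC and length trends removed (0.067). Its pseudogene MRPS31P5 held 6395 counts over all libraries, against 15354 for MRPS31, so reads could have been split between them. Over all 48 pseudogene rows of the family the counts came to 0.393% of those of the 78 genes. The other 4 falls, of MRPL13, MRPS10, MRPS7 and MRPL15, lay between -0.32 and -0.30 (adjusted p 0.00747 to 0.0496), and of these only MRPL13 was called in all alternatives.

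Grouped by place, 7 of 26 small subunit genes rose and 5 fell (median log2 change -0.04), and 11 of 51 large subunit genes rose and 7 fell (median 0.06). Leaving out BafA1 replicate 1, 10 of the 26 rose and 2 fell, and 21 of the 51 rose and 6 fell. Grouped by protein name, 10 of the 31 genes whose protein carries a mitochondrial (m) name rose and 3 fell (median 0.15), and 8 of the 46 whose protein carries a name shared with bacteria (u or b) rose and 9 fell (median -0.06). MRPS18A and MRPS18B stand among the 31 by name, although they descend from a bacterial protein. Without BafA1 replicate 1, 16 of the 31 rose and 2 fell, and 15 of the 46 rose and 6 fell. With library totals alone, 6 of the 31 rose and 5 fell, and 19 of the 46 fell. In that setting 12 genes of the whole family rose and 24 fell, against 15% and 27.5% of all genes. As shares, with all libraries, 26.9% of small and 21.6% of large subunit genes rose, and 19.2% and 13.7% fell. By name, 32.3% of the 31 and 17.4% of the 46 rose, and 9.68% and 19.6% fell. Among all genes 20.8% rose and 20.7% fell, or 20.9% and 20.2% without BafA1 replicate 1. The difference between the groups, or from all genes, was not tested.

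MRPS12 (uS12m, a protein of the decoding centre) had 16.2, 24.7 and 18.9 CPM in BafA1 NPC and 23.3, 24.7 and 20.3 CPM in Control NPC, overlapping ranges with a log2 change of -0.20 ± 0.14 (SE, edgeR adjusted p = 0.28). It was called lower without BafA1 replicate 2 (-0.38, adjusted p = 0.0278) and with GC and length trends removed, without the replicate block (-0.35, adjusted p = 0.0379) and with it (-0.36, adjusted p = 0.0216). MRPS36 (KGD4), whose product belongs to the 2-oxoglutarate dehydrogenase complex, had 11.1, 15.9 and 15.1 CPM in BafA1 NPC and 14.7, 15.3 and 15.4 CPM in Control NPC, with a change of -0.11 ± 0.14 (SE, adjusted p = 0.553) that turned positive without BafA1 replicate 1.

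The RefSeq spans of 2 genes contain a neighbour whose reads could matter, and whether reads were counted by strand is not stated in the labels. MRPL23 (uL23m, at the exit of the peptide tunnel, chr11:1947332-2014944) spans H19, a noncoding RNA that had 92.5, 71.5 and 85.2 CPM in BafA1 NPC and 10.7, 9.97 and 13.7 CPM in Control NPC, a log2 change of 2.86 ± 0.16 (SE, edgeR adjusted p = 2.97e-06). In hESC H19 had 5.73, 4.40 and 4.14 CPM, so it was abundant only in BafA1 NPC. MRPL23 itself had 43.8, 55.99 and 50.9 CPM in BafA1 NPC and 46.1, 43.7 and 39.8 CPM in Control NPC, overlapping ranges with a change of 0.22 ± 0.10 (SE, adjusted p = 0.103). It was called higher without BafA1 replicate 1 (0.32, adjusted p = 0.0141) and had an estimate of -0.11 in log2(FPKM + 1). MRPS6 (bS6m, chr21:34073578-34143030, plus strand) spans the inositol transporter gene SLC5A3, which had 77.3, 57.5 and 75.7 CPM in BafA1 NPC and 87.3, 86.5 and 87.4 CPM in Control NPC (change -0.31 ± 0.12 (SE), adjusted p = 0.063). MRPS6 had 68.2, 84.8 and 78.3 CPM in BafA1 NPC and 77.8, 65.1 and 66.2 CPM in Control NPC, with a change of 0.15 ± 0.099 (SE, adjusted p = 0.262). Neither MRPL23 nor MRPS6 passed the test in the comparison of all libraries.

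The second comparison gives the scale of differentiation. In Control NPC against hESC most of the genes fell: 43 of 78 fell and 5 rose (edgeR quasi-likelihood test, adjusted p under 0.05), with a median log2 change of -0.31. Largest falls were those of MRPS2 and MRPL2, to 0.493 and 0.501 of the hESC level, followed by MRPL4, MRPS34 and MRPL16. The rises were those of MRPL40, MRPL33, MRPS14, MRPL53 and MRPS11, at 1.24 to 1.71 times the hESC level.

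Of all genes tested, 31.6% fell and 33% rose, against 55.1% and 6.41% of the 78 genes, and the median of all genes was 0.03. Of the protein-coding genes tested, 35.4% fell and 34.7% rose. The Control libraries lay below all hESC libraries in 55 of the 78 genes and above them in 10, against 35.8% and 37% of all genes. Both subunits took part, with 14 of 26 small subunit genes and 29 of 51 large subunit genes lower, and 2 and 3 higher. By protein name, 19 of the 31 genes with an m name and 24 of the 46 with a u or b name fell. In the 19 alternatives 38 to 51 of the 78 genes fell, against 20.6% to 34.8% of all genes. Of the 43 falls, 34 were called in every one. Scaling by library totals alone moved the median of all genes to 0.14 and gave 39 falls and 10 rises, against 27.5% and 36.9% of all genes. GC content moved with the groups: ranked across genes, it correlated with how far a library departed from the 9-library mean at -0.0239 to 0.0534 in BafA1 NPC, -0.352 to -0.141 in Control NPC and 0.0911 to 0.176 in hESC. Median transcript GC content was 50.49% in the 78 genes and 50.41% in all genes tested. With GC and length trends removed 44 of the 78 genes fell and 6 rose, against 31.5% and 33.2% of all genes.

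**Figure D4:**
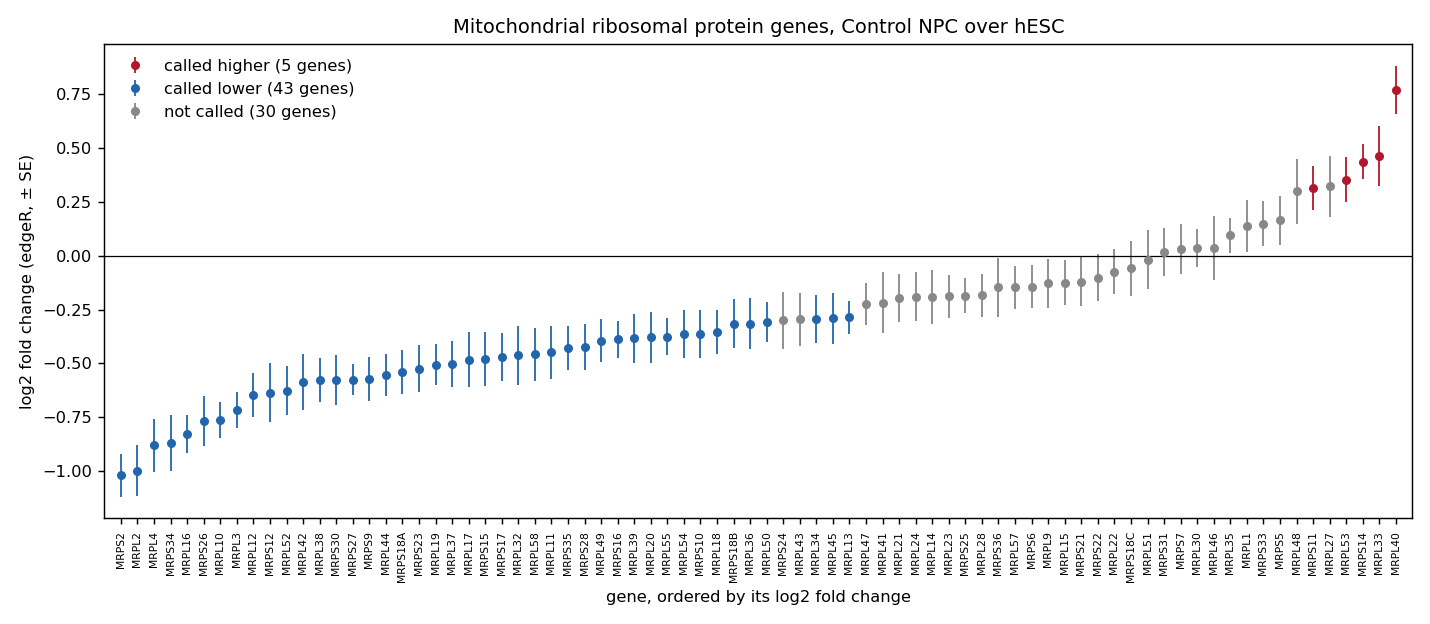
Log2 fold change of Control NPC over hESC (vertical axis, edgeR estimate ± SE, 3 libraries a group) of each of the 78 genes, ordered from lowest to highest along the horizontal axis, in red where called higher (5), in blue where called lower (43) and in grey where not called (30). Of the 78 estimates 63 lie below 0, from MRPS2 at -1.02 upwards, and MRPL40 at 0.77 is the highest.

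MRPS2 (uS2m, a small subunit protein at the exit of the mRNA channel, chr9:135499965-135504673, plus strand) had 46.8, 46.6 and 38.7 CPM in Control NPC, against 90.3, 87.2 and 90.4 CPM in hESC. The groups were far apart, at a log2 change of -1.02 ± 0.099 (SE, edgeR adjusted p = 2.37e-06). Its BafA1 libraries, at 54.95, 65.1 and 66.2 CPM, lay between the other 2 groups. MRPL2 had 22.7, 18.8 and 19.5 CPM in Control NPC and 41.7, 38.7 and 41.4 CPM in hESC, a change of -0.998 ± 0.12 (SE, adjusted p = 1.34e-05), and here too the BafA1 libraries lay in between.

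MRPL4 (uL4m, which lines the peptide tunnel) had 39.5, 44.1 and 34.2 CPM in Control NPC and 75.01, 70.4 and 71.3 CPM in hESC, with a log2 change of -0.88 ± 0.12 (SE, edgeR adjusted p = 5.16e-05). MRPS34 (mS34) had 72.6, 65.5 and 62.4 CPM in Control NPC and 137, 113 and 117 CPM in hESC, with a change of -0.87 ± 0.13 (SE, adjusted p = 9.85e-05). BafA1 NPC stayed near Control NPC in both, at 35.4, 49.1 and 43.2 CPM for MRPL4 and 58.1, 84.8 and 75.6 CPM for MRPS34, with ranges that include all or part of the Control values. MRPS26 (mS26) had 42.1, 34.1 and 32.05 CPM in Control NPC and 67.4, 60.3 and 56.7 CPM in hESC, a change of -0.77 ± 0.12 (SE, adjusted p = 0.000108).

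MRPL16 stepped down over both comparisons, with 34.04, 32.5 and 29.4 CPM in Control NPC and 58.7, 55.00 and 56.5 CPM in hESC (log2 change -0.83 ± 0.087 (SE), edgeR adjusted p = 4.8e-06) and still lower values in BafA1 NPC. MRPL10 went the other way in the treated cells: it had 45.6, 44.4 and 47.5 CPM in Control NPC and 76.2, 73.98 and 83.2 CPM in hESC, a change of -0.76 ± 0.085 (SE, adjusted p = 7.97e-06), and its BafA1 libraries overlapped those of hESC. The 2 comparisons share the Control libraries, so a Control value that is high or low by chance moves both. MRPL3 (uL3m, one of the first proteins to bind the large subunit rRNA) had 114, 115 and 116 CPM in Control NPC and 193, 189.9 and 184 CPM in hESC, a change of -0.72 ± 0.083 (SE, adjusted p = 1.12e-05), with no overlap.

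The remaining 35 falls ran from -0.65 to -0.29 (SE 0.072 to 0.14, edgeR adjusted p 2.14e-05 to 0.0482). Among them MRPL12 had 70.6, 68.4 and 60.2 CPM in Control NPC and 108, 104 and 100.2 CPM in hESC (change -0.65 ± 0.10 (SE), adjusted p = 0.000152), and MRPS12 had 23.3, 24.7 and 20.3 CPM in Control NPC and 36.9, 36.2 and 33.2 CPM in hESC (change -0.64 ± 0.14 (SE), adjusted p = 0.00156). Both stayed clear of the hESC range in every Control library. MRPS30 fell by 0.58 (adjusted p = 0.000816), MRPL58 by 0.46 (adjusted p = 0.0054) and MRPS18A by 0.54 (adjusted p = 0.000493). MRPS18B fell by 0.32 (adjusted p = 0.0299), a call lost without Control replicate 2 (adjusted p = 0.106), Control replicate 3 (0.085) or hESC replicate 1 (0.122), with the replicate block (0.0501; 0.0769 with GC and length trends removed as well), with library totals alone (0.0898) and with limma on the FPKM values (0.0614 and 0.0646). MRPS18C, MRPS36, MRPL23 and MRPS6 did not pass the test, with changes of -0.06, -0.15, -0.19 and -0.14. With GC and length trends removed, MRPS36 (-0.38, adjusted p = 0.0234) and MRPS18C (-0.31, adjusted p = 0.0466) were called lower, and MRPL23 turned to 0.06. MRPL23 was called lower with DESeq2 (-0.23, adjusted p = 0.0498), with the 2 groups alone (-0.21, adjusted p = 0.0361) and without BafA1 replicate 1 (-0.21, adjusted p = 0.0366).

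MRPL40 (mL40, encoded in the region of chromosome 22 that is lost in the 22q11 deletion syndrome) was the clearest exception, with 24.6, 27.3 and 28.1 CPM in Control NPC and 15.9, 15.2 and 15.9 CPM in hESC. All Control libraries were higher, and the log2 change was 0.77 ± 0.11 (SE, edgeR adjusted p = 8e-05). BafA1 NPC, at 24.7, 33.2 and 30.9 CPM, overlapped Control NPC. MRPS14 (uS14m) had 36.7, 37.7 and 38.5 CPM in Control NPC and 27.3, 27.4 and 28.8 CPM in hESC, a change of 0.44 ± 0.080 (SE, adjusted p = 0.000475), also with no overlap.

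MRPL33 (bL33m) had 42.3, 40.4 and 41.3 CPM in Control NPC and 31.5, 28.9 and 29.6 CPM in hESC, a log2 change of 0.46 ± 0.14 (SE, edgeR adjusted p = 0.0118). The groups were separate, but the call was lost with GC and length trends removed (0.25, adjusted p = 0.146). MRPL53 had 18.7, 18.9 and 18.3 CPM in Control NPC and 14.9, 13.5 and 15.3 CPM in hESC, a change of 0.35 ± 0.11 (SE, adjusted p = 0.0113), lost without hESC replicate 2 (adjusted p = 0.0532). Its levels thus stood highest in BafA1 NPC and lowest in hESC, with no overlap between any 2 groups. MRPS11 had 42.3, 39.5 and 34.6 CPM in Control NPC and 32.7, 30.7 and 30.2 CPM in hESC, a change of 0.32 ± 0.10 (SE, adjusted p = 0.0176). That call was lost without Control replicate 1 (adjusted p = 0.068), Control replicate 2 (0.0548), hESC replicate 2 (0.0558) or hESC replicate 3 (0.0648). Without hESC replicate 2 only 3 of the 78 genes rose, against 29.8% of all genes.

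The third comparison sets the treated progenitors against the stem cells they came from. In BafA1 NPC against hESC 6 of 78 genes rose and 39 fell (7.69% and 50%), against 35.5% and 34.8% of all genes, and the median log2 change was -0.26 against 0.02 over all genes. Of the protein-coding genes tested, 36.8% rose and 38.2% fell. MRPL16 fell the most, with 21.1, 24.5 and 22.7 CPM in BafA1 NPC and 58.7, 55.00 and 56.5 CPM in hESC, a change of -1.32 ± 0.089 (SE, edgeR adjusted p = 8.2e-08). MRPL53, MRPL40 and MRPS5 rose the most, by 0.93, 0.92 and 0.85 (adjusted p = 7.55e-06, 1.56e-05 and 3.16e-05). Without BafA1 replicate 1, 16 rose and 33 fell, against 34% and 34.4% of all genes. This comparison shares its libraries with the other 2 and is no independent evidence for either.

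The rest of the mitochondrial translation pathway is given from lists that were written with earlier results of these data known. Beside their counts stand those of all genes, 20.8% higher and 20.7% lower in BafA1 NPC over Control NPC and 33% higher and 31.6% lower in Control NPC over hESC. Of 5 mitoribosomal proteins without an MRP symbol, 1 rose and 0 fell in BafA1 NPC: GADD45GIP1 (mL64) had 59.8, 85.2 and 86.9 CPM in BafA1 NPC and 62.3, 53.8 and 53.2 CPM in Control NPC (log2 change 0.45 ± 0.14 (SE), edgeR adjusted p = 0.0187), with overlapping ranges. That call was lost without BafA1 replicate 2 or 3 or Control replicate 2 or 3, with limma on the FPKM values, and with GC and length trends removed together with the block. Without BafA1 replicate 1, 2 of the 5 rose. DAP3 (mS29) and PTCD3 (mS39), both in the small subunit, had changes of 0.09 and 0.09 that were not called, and DAP3 was called higher without BafA1 replicate 1 (0.21, adjusted p = 0.0308). In Control NPC against hESC 2 of the 5 fell, GADD45GIP1 by 0.76 and AURKAIP1 (mS38) by 0.54 (adjusted p = 0.000368 and 0.00467). The AURKAIP1 call was lost with GC and length trends removed (-0.16, adjusted p = 0.217). PTCD3, whose change of -0.04 was not called, was called lower in that setting (-0.24, adjusted p = 0.0108).

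Assembly and rRNA-modifying factors, 30 genes (among them METTL5, which modifies cytosolic rRNA), gave 10 falls and 5 rises in BafA1 NPC against Control NPC (33.3% and 16.7%, median log2 change -0.03), and 9 and 6 without BafA1 replicate 1. Control NPC against hESC gave 19 falls and 2 rises (63.3% and 6.67%, median -0.35). RPUSD3, a protein of the pseudouridine synthase family, had 39.95 ± 4.51 CPM in BafA1 NPC, 22.5 ± 1.48 CPM in Control NPC and 45.6 ± 2.54 CPM in hESC (SD, n = 3 each). It rose by 0.83 in BafA1 NPC over Control NPC and fell by 1.02 in Control NPC over hESC (edgeR adjusted p = 8.28e-05 and 2.36e-06). The large subunit assembly GTPase MTG1 and NGRN, a partner of the large subunit rRNA, fell in BafA1 NPC by 0.76 and 0.69 (adjusted p = 0.000234 and 0.000151). MPV17L2 and the rRNA methyltransferase MRM3 fell in Control NPC by 1.16 and 0.84 (adjusted p = 1.48e-05 and 1.41e-05).

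Of 20 translation factors and related genes found in the table, 7 fell and 4 rose in BafA1 NPC (35% and 20%, median -0.14), and 7 and 6 without BafA1 replicate 1. Of the same genes 11 fell and 4 rose in Control NPC against hESC (55% and 20%, median -0.26). COA3, which acts on the making of cytochrome oxidase subunit 1, fell in BafA1 NPC by 0.60, as did the release factor gene MTRF1L by 0.48 and LETM1, an inner membrane ion exchanger, by 0.68 (edgeR adjusted p = 0.000695, 0.001 and 0.00218). With differentiation the elongation factor genes GFM1 and TSFM fell by 0.66 and 0.72 and the tRNA-modifying GTPBP3 by 0.65 (adjusted p = 8.5e-05, 0.000139 and 2.62e-05).

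Genes of mitochondrial transcription and mRNA handling, 24 of them, fell in 12 cases and rose in 3 in BafA1 NPC (50% and 12.5%, median -0.25), and in 10 and 4 without BafA1 replicate 1. Against hESC, 15 fell and 2 rose in Control NPC (62.5% and 8.33%, median -0.41). FASTKD5, needed for noncanonical mRNA processing, had 10.6 ± 0.506 CPM in BafA1 NPC and 27.3 ± 2.87 CPM in Control NPC, a log2 change of -1.37 ± 0.10 (SE, edgeR adjusted p = 1.04e-05). TRMT10C, a subunit of the RNase that cuts tRNA 5' ends, and MTERF1 fell in BafA1 NPC by 0.94 and 0.71 (adjusted p = 1.24e-05 and 0.000393). In Control NPC against hESC the transcription factor TFB2M fell by 1.58, the RNA polymerase POLRMT by 1.06 and TBRG4 by 0.91 (adjusted p = 2.89e-07, 1.11e-06 and 2.15e-06).

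Of the 13 mitochondrially encoded mRNAs, the templates of this ribosome, 9 fell, 0 rose and 4 were not called in BafA1 NPC (69.2% lower, median -0.56), and 8 fell and 0 rose without BafA1 replicate 1. In Control NPC against hESC 8 fell, 0 rose and 5 were not called (61.5% lower, median -0.37). ATP6 had 911 ± 107 CPM in BafA1 NPC and 2284 ± 204 CPM in Control NPC (log2 change -1.33 ± 0.14 (SE), edgeR adjusted p = 3.68e-05), and ND2 had 728 ± 67.7 CPM in BafA1 NPC and 1391 ± 201 CPM in Control NPC (change -0.93 ± 0.13 (SE), adjusted p = 0.000171). ATP8 fell by 1.59 (adjusted p = 2.51e-05), and its reading frame overlaps ATP6, so their reads cannot be fully told apart. With differentiation ND1 fell by 1.23, ND2 by 1.07 and COX1 by 0.88 (adjusted p = 3.36e-06, 1.25e-05 and 6.4e-06).

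Of 15 regulators of mitochondrial biogenesis 4 rose and 5 fell in BafA1 NPC (26.7% and 33.3%, median -0.14), and 4 and 6 without BafA1 replicate 1. Set against hESC, 4 rose and 7 fell in Control NPC (26.7% and 46.7%, median -0.11). MYC, a driver of ribosomal and mitochondrial gene expression, had 26.9 ± 3.15 CPM in BafA1 NPC, 5.78 ± 1.20 CPM in Control NPC and 72.4 ± 3.38 CPM in hESC (SD, n = 3 each). It rose by 2.21 in BafA1 NPC over Control NPC and fell by 3.64 in Control NPC over hESC on the log2 scale (edgeR adjusted p = 4.68e-06 and 1.3e-09). BHLHE40 rose by 2.87 in BafA1 NPC (adjusted p = 4.68e-06), and GABPB1, the activating subunit of GABP, fell by 0.56 (adjusted p = 0.000356). In Control NPC against hESC the coactivator PPARGC1A rose by 2.58 and its relative PPARGC1B fell by 2.69 (adjusted p = 1.1e-07 and 3.67e-07).

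**Figure D5:**
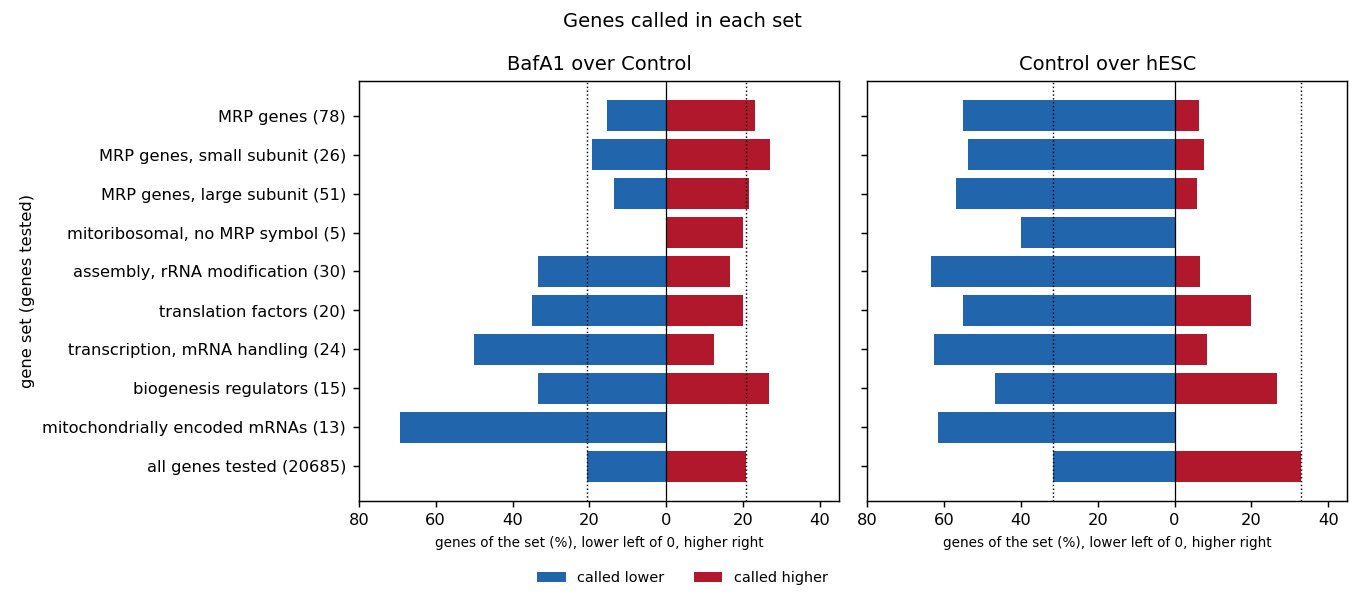
Share of the genes of each set called lower (blue, left of 0) and higher (red, right of 0), in percent, in BafA1 NPC over Control NPC (left panel) and Control NPC over hESC (right panel), with the number of genes tested in brackets and dotted lines at the shares of all genes. In the left panel the 78 genes (MRP genes) lie at 15.4% lower and 23.1% higher, beside dotted lines at 20.7% and 20.8%, and in the right panel at 55.1% lower and 6.41% higher.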

How the data were processed

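The authors deposited 1 table of raw read counts per gene and 3 of FPKM values, 1 for each group (fragments scaled for transcript length and library size, 1 column per library) for 9 libraries, 3 each of BafA1 NPC, Control NPC and hESC. Per the submitters' processing notes, the tools included Trimmomatic, a read trimmer, and the genome build was GRCh38. Not given in the sources used here are the aligner, the counter and whether counting used strand. The columns headed Control were taken as the untreated progenitors, the only labelled group without columns of its own name.

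Counts were tested with edgeR 4.0.16 (quasi-likelihood test, two-sided, TMM scaling, genes kept by filterByExpr, 1 term per group over 9 libraries) in R 4.3.3. All 20685 genes kept were adjusted together by Benjamini-Hochberg, and a gene was called at an adjusted p under 0.05. A standard error was taken as the log2 change divided by the root of the test's F. FPKM values served for levels per length and, with limma 3.58.1 on log2(FPKM + 1) and log2(FPKM + 0.1), as alternatives. Others were DESeq2 1.42.0, its size factors, library totals alone, no filter on low counts, the 2 groups alone, a replicate block, removal of GC and length trends (values for 84.5% of genes tested and 78 of 78 members) and leaving out each library. The scripts were tested on simulated counts. No 2 libraries agreed within sampling noise, with a chi-square per degree of freedom of 10.6 to 69.1. The p-values weigh a change against the spread between these libraries and do not measure that spread.

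The members and lists were chosen with earlier results of these data known. Genes described one by one are the 8 called genes with the largest rise and the 8 with the largest fall in each of BafA1 NPC over Control NPC and Control NPC over hESC, 10 genes fixed by name, and up to 3 genes with the smallest adjusted p from each list and comparison. Others named with values (MRPL46, CYB5RL, FAU, ZNF189, MRPS30-DT, YY1, GABPA) were chosen after their values were seen. Promoter sequences and positions are RefSeq's, on GRCh38.p14.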

Additional observations from a re-analysis of the deposited data

How the results depend on the processing

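Across 19 alternatives, 38 to 51 of the 78 genes fell in Control NPC over hESC, within 1.5 times the 43 reported. Of all genes, 20.6% to 34.8% fell in these alternatives. The BafA1 NPC over Control NPC split did not hold: 9 rose and 22 fell with limma on log2(FPKM + 1), 9 and 22 on log2(FPKM + 0.1), and 24 fell with library totals alone. Of all genes, 8.03% and 8.09% rose and 16.8% fell with limma at either pseudocount, and 27.5% fell with library totals alone. Leaving out 1 library gave 12 to 31 rises, the highest without BafA1 replicate 1, and 8 to 18 falls. In those fits 15.3% to 20.9% of all genes rose and 15.5% to 20.2% fell. In Control NPC over hESC 10 rose with library totals alone, and leaving out 1 library gave 3 to 7, the lowest without hESC replicate 2. There 36.9% of all genes rose with library totals alone and 29.5% to 32.6% with 1 library left out. In BafA1 NPC over hESC leaving out 1 library gave 5 to 16 rises, the highest without BafA1 replicate 1, against 32.3% to 35.1% of all genes. The ratio of summed levels was 1.054 (BafA1 over Control) and 0.7908 (Control over hESC) on the TMM scale. The cause of these differences was not tested.

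Whether the replicate numbers pair the libraries is not stated in the labels. Deviations of same-numbered libraries from their group means correlated across genes at -0.0613 to 0.149, over 0.1 in 2 of 9 pairs. For differently numbered libraries the range was -0.149 to 0.115. With 3 libraries a group these values cannot show whether same-numbered libraries were grown or sequenced together. With the replicate block 16 rose and 10 fell in BafA1 NPC over Control NPC, 5 and 42 in Control NPC over hESC, and 6 and 37 in BafA1 NPC over hESC. In the same order 19.9%, 32.4% and 34.8% of all genes rose and 20%, 31% and 34.3% fell.

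Some estimates that were not called changed sign. In BafA1 NPC over Control NPC these were MRPL23 (-0.1132 and -0.1151 with limma at pseudocounts 1 and 0.1, -0.008613 and -0.009919 with GC and length trends removed without and with the block), MRPS6 (-0.006233 and -0.006291 with limma), MRPS36 (0.03656 and 0.02366 with GC and length trends removed), PTCD3 (-0.04039 with library totals alone, -0.05558 and -0.05854 with limma) and DAP3 (-0.04006, -0.006285 and -0.006584 under the same 3). In Control NPC over hESC they were MRPL23 (0.06446 and 0.06425 with GC and length trends removed), MRPS18C (0.04466 with library totals alone, 0.03038 and 0.03215 with limma) and PTCD3 (0.06231, 0.01193 and 0.01245 under those 3). Leaving out 1 library gave -0.124 to 0.05689 for MRPL12 and -0.2092 to 0.04257 for MRPS36 in BafA1 NPC over Control NPC, both highest without BafA1 replicate 1, and -0.1211 to 0.007433 for PTCD3 in Control NPC over hESC, highest without Control replicate 2. With 3 libraries a group, small changes may go uncalled.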
